A study of Homo sapiens with 4 samples.

Results

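Histone genes whose symbols begin with HIST1H to HIST4H were described in human cells at day 2 of hematopoietic differentiation. They were all rows of the deposited tables with such a symbol, 65 of 17894 genes, and comprised 6 H1, 16 H2A, 17 H2B, 12 H3 and 14 H4 genes. The cells came from H1, a human embryonic stem cell line whose name is unrelated to histone H1, and were grown on mAGM-S3 mouse stromal cells. Cells positive for TRA-1-85, an antigen of human cells, were sorted before RNA was extracted with Trizol and made into libraries with the Illumina TruSeq RNA kit. The 4 libraries were 1 of untreated wild-type cells (control), 1 of wild-type cells given R-spondin2, a secreted ligand of LGR receptors, at 20 ng/mL for the first day, and 1 from each of 2 LGR4-/- samples of the same cell line, which were untreated and are called clone 1 and clone 2 here after the numbers in their labels. The labels do not say how the LGR4 gene was disrupted, or whether the numbers mark separately derived lines. All 4 were collected at day 2 and share the stromal co-culture and the sort.

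Replication-dependent histone genes lie in clusters and are transcribed mainly in S phase, when new DNA has to be packaged. H2A, H2B, H3 and H4 form the nucleosome core and H1 binds the linker DNA between cores. Their mRNAs usually end in a conserved stem-loop bound by the protein SLBP and carry no poly(A) tail, so that a library made by selecting poly(A) RNA, as this kit does, recovers mainly the minority of transcripts that are polyadenylated. A level given here is therefore not a level of total histone mRNA.

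The sequences below show why some of these genes are hard to count separately. HIST1H2AI and HIST1H2AJ, both H2A genes of the chromosome 6 cluster (GRCh38, GENCODE release 29: chr6:27808199-27808701 on the plus strand and chr6:27814354-27814740 on the minus strand), share 82.3% and 83.7% of their 50-base coding windows with each other. The first 60 coding bases are printed, and capitals mark bases that differ from HIST1H2AI; HIST1H2AM, another H2A gene, is shown for contrast.
HIST1H2AI: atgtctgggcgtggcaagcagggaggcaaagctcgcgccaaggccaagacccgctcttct
HIST1H2AJ: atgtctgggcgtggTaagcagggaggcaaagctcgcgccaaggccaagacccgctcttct
HIST1H2AM: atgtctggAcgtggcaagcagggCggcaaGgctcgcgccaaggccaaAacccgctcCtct

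HIST1H2AJ differed from HIST1H2AI at 1 of these bases and HIST1H2AM at 5. Within H4, capitals mark bases that differ from HIST1H4K (chr6:27831216-27831527, minus strand), the gene with the highest level.
HIST1H4K: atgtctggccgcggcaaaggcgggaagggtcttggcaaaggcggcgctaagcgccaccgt
HIST1H4I: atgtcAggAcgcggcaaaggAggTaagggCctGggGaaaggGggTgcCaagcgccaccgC
HIST1H4H: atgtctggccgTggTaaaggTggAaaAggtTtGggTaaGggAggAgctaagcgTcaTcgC
HIST2H4A: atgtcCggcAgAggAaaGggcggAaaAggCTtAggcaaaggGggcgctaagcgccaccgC

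HIST1H4I (chr6:27138588-27139881) differed at 11 bases, HIST1H4H (chr6:26277609-26285638) at 14 and HIST2H4A at 12. By contrast, the whole coding sequence of HIST1H4K was shared with HIST1H4J, a gene not analysed here, so that reads of the 2 genes cannot be told apart. HIST1H4I shared 2.66% of its windows with another gene and HIST1H4H none. The median identity between coding sequences of the same length was 85.2% within H2A, 89.8% within H2B, 85.6% within H3 and 83.3% within H4.

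The stem-loop of the mRNA end was found in an annotated transcript of 30 of the 65 genes, since many annotated transcripts stop at the end of the coding sequence. A common form and variants of its loop are shown, with the 4 loop bases in capitals.
HIST1H2AC: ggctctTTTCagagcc
HIST1H2BD: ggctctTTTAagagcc
HIST1H3E: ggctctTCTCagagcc

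For 22 genes an annotated transcript ran at least 200 bases past the stem-loop, the kind of transcript that can be polyadenylated. Their median level over the 4 libraries was 2.04 FPKM, and 16 of the 22 reached a mean of 1 FPKM. The other 43 genes had a median of 0.633 FPKM, and 17 of them reached 1 FPKM. FPKM are fragments scaled for transcript length and for the depth of the library. The 2 ranges overlapped, from 0.0725 to 11 FPKM and from 0 to 26.9 FPKM, and the comparison is a description of annotated models.

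Promoters were printed for HIST1H4K, the gene of highest level, and for HIST1H2AM, which is transcribed in the opposite direction to HIST1H2BO from a shared region. They are RefSeq sequences of GRCh38.p14, 250 bases before to 50 bases after the start, with the motifs TATAAA (the TATA box) and CCAAT in capitals on either strand. The HIST1H4K window is chr6:27831511-27831810 (minus strand) and that of HIST1H2AM chr6:27893136-27893435 (minus strand), which overlaps the HIST1H2BO window, chr6:27893175-27893474 (plus strand).
HIST1H4K: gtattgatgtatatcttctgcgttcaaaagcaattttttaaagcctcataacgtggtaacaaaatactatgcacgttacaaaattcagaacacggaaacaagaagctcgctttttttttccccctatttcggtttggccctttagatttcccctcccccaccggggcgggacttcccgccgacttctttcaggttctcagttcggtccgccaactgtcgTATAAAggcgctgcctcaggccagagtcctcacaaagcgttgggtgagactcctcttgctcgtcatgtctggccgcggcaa
HIST1H2AM: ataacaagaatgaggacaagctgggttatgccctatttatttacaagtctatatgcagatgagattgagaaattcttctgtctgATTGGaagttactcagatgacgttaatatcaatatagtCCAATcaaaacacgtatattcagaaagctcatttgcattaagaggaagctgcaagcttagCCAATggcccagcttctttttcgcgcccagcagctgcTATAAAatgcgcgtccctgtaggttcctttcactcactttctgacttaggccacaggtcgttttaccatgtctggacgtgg

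A promoter was found for 60 of the 65 genes. TATAAA was present in 39 of the 60 (65.0%) and in 12% of all 27305 promoters, and CCAAT in 51 (85.0%) against 35.7%. All 15 H2A, all 17 H2B, all 10 H3 and all 6 H1 promoters held CCAAT, as did 3 of 12 H4 promoters. TATAAA was in 11 H2A, 11 H2B, 8 H3, 3 H1 and 6 H4 promoters. The windows of 10 pairs of an H2A and an H2B gene overlap, so that 1 match can count in both classes. The window listed for HIST1H3D is the same as that of HIST1H2AD (chr6:26199244-26199543). A capital run TTTATA or ATTGG is a match on the opposite strand.

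The histone genes were low in all libraries. Their summed level was 149 FPKM in control, 159 with R-spondin2, 158 in clone 1 and 174 in clone 2, which was 0.0342%, 0.0367%, 0.0361% and 0.0398% of the FPKM of all genes. Of the 65 genes, 33 had a mean of at least 1 FPKM and 5 of at least 10 FPKM, while HIST1H1T, HIST1H4F, HIST1H4G and HIST1H4L were listed at 0 in every library. The 4 genes of highest mean held between 39.4% and 47.9% of the summed level. Because the kit selects poly(A) RNA, these low levels are not those of total histone mRNA. For a difference between libraries, fewer cells in S phase and less histone RNA per cell cannot be told apart in bulk RNA.

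**Figure D1:**
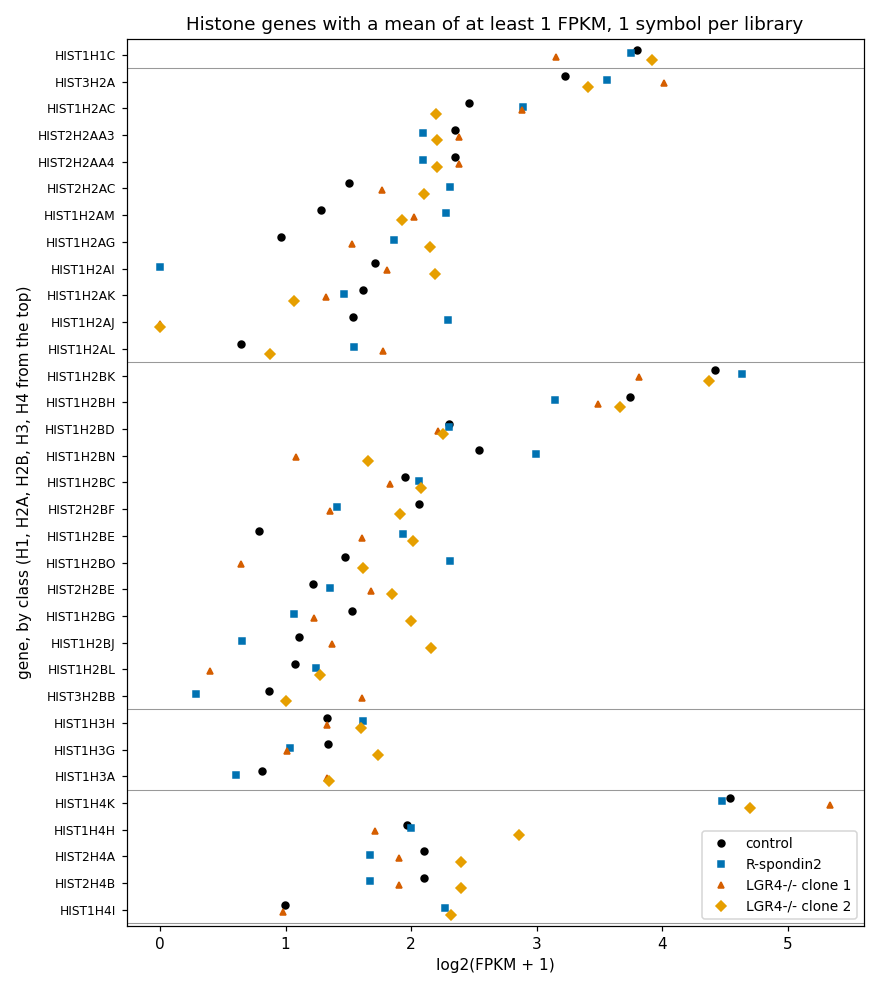
Level of the 33 kept histone genes (mean of 1 FPKM or more), as log2(FPKM + 1), with 1 symbol for each library and the genes ordered by class and mean. HIST1H4K sits farthest right in clone 1, and HIST1H2AI and HIST1H2AJ each fall to 0 in at least 1 library.

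H1 was represented almost wholly by HIST1H1C, the linker histone H1.2, which held 93.8% of the class sum. It measured 12.9 FPKM in control, 12.5 with R-spondin2, 7.88 in clone 1 and 14.1 in clone 2. Clone 1 was the lowest library and the other three were close together. HIST1H1B measured between 0.150 and 0.60 FPKM, HIST1H1D between 0.150 and 0.300, HIST1H1E between 0 and 0.450 and HIST1H1A between 0 and 0.150, each resting on a few reads at most.

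H2A had 11 genes at 1 FPKM or more and a median over its 16 genes of 1.84 FPKM. HIST3H2A, an H2A gene of the small chromosome 1 cluster, was the highest, with 8.35 FPKM in control, 10.8 with R-spondin2, 15.2 in clone 1 and 9.63 in clone 2. HIST1H2AC followed with 4.52, 6.41, 6.37 and 3.59 FPKM in the same order. Thus clone 1 was the highest library for HIST3H2A, while R-spondin2 and clone 1 were both above control and clone 2 below it for HIST1H2AC. HIST2H2AA3 and HIST2H2AA4, whose coding sequences are identical, were listed with the same 4 values, 4.10, 3.28, 4.22 and 3.62 FPKM. The same held for HIST2H3A and HIST2H3C and for HIST2H4A and HIST2H4B, so that these 3 pairs are 3 measurements and not 6. HIST2H2AC measured 1.84 FPKM in control, 3.96 with R-spondin2, 2.40 in clone 1 and 3.30 in clone 2, with control the lowest.

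H2B had the highest class sum in control, R-spondin2 and clone 2 and 13 of 17 genes at 1 FPKM or more. HIST1H2BK led with 20.4 FPKM in control, 23.9 with R-spondin2, 13.1 in clone 1 and 19.7 in clone 2, followed by HIST1H2BH with 12.4, 7.83, 10.2 and 11.7 FPKM. The lowest library was clone 1 for the first and R-spondin2 for the second. The coding windows of HIST1H2BK were shared to 74.1% with other genes, most with the histone gene H2BFS, and those of HIST1H2BH to 0%. HIST1H2BD hardly varied, between 3.65 and 3.92 FPKM, and HIST1H2BC lay between 2.56 and 3.23 FPKM.

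H3 was the lowest of the core classes. Its highest gene, HIST1H3H, measured 1.51 FPKM in control, 2.06 with R-spondin2, 1.51 in clone 1 and 2.04 in clone 2, and the whole class summed to 9.48, 7.01, 8.18 and 11.3 FPKM. HIST1H3G lay between 1.02 and 2.33 FPKM, HIST1H3A between 0.520 and 1.54, HIST1H3F between 0.520 and 1.04, and HIST2H3D between 0.320 and 1.06. Only the first 3 of these genes reached a mean of 1 FPKM.

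H4 was dominated by HIST1H4K, with 63.9% of the class sum. It measured 22.2 FPKM in control, 21.2 with R-spondin2, 39.4 in clone 1 and 25.0 in clone 2. Clone 1 stood above the other three, which spanned 21.2 to 25.0 FPKM. HIST1H4H measured 2.92, 3.0, 2.27 and 6.26 FPKM and HIST1H4I 0.990, 3.82, 0.970 and 3.99 FPKM in the same order. Clone 2 was the highest library for both, and for HIST1H4I the R-spondin2 library was close to it. HIST2H4A and HIST2H4B each had 3.29, 2.19, 2.74 and 4.26 FPKM, and HIST4H4, the single gene of the chromosome 12 locus, 0.290, 0, 1.75 and 0.890 FPKM.

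The 32 genes below a mean of 1 FPKM were read as single values. Among those outside the 5 highest of a class, HIST1H2AH was listed at 0 in control and measured 2.64 FPKM with R-spondin2, 0.290 in clone 1 and 0.530 in clone 2, on 9 reads at most. HIST1H4E went the other way, with 1.29 FPKM in control, 0 with R-spondin2, 1.61 in clone 1 and 0.650 in clone 2. Both were chosen after their values were seen. In all, 26 of the 65 genes were listed at 0 in at least 1 library.

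By cluster, the 51 HIST1 genes of chromosome 6 had a median of 0.865 FPKM, the 11 HIST2 genes 2.29 FPKM and the 2 HIST3 genes 6.02 FPKM. The HIST1 genes still held most of the summed level, between 115 FPKM in control and 135 FPKM in clone 2.

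**Figure D2:**
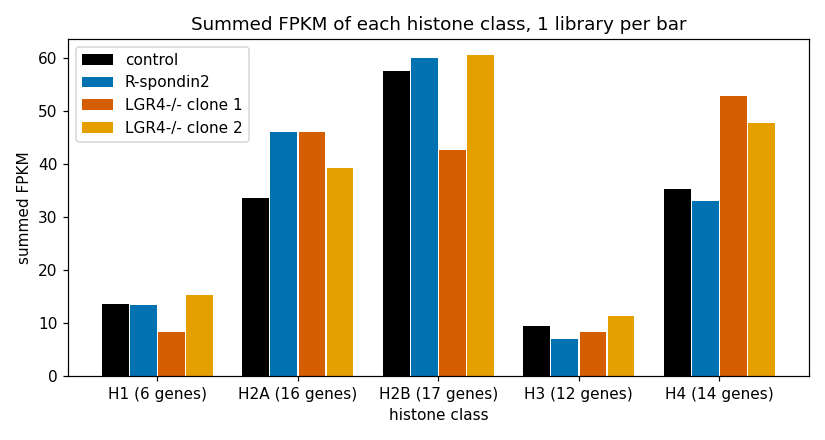
Summed FPKM of all genes of each histone class, with 1 bar for each library and no replicates. H2A is lowest in control, at 33.5 FPKM, H4 is highest in clone 1, at 52.8 FPKM, and H2B is lowest in clone 1, at 42.5 FPKM.

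The depth behind these values was small. About 8680000 to 8910000 reads per library were estimated from the steps between low FPKM values. For the 58 histone genes with a usable length, 1 read was worth 0.265 FPKM at the median, and 46 of the 58 rested on fewer than 10 reads per library on average. All 58 together amounted to 467 reads in control, 491 with R-spondin2, 522 in clone 1 and 564 in clone 2. Control and R-spondin2 have 1 library each, and 1 control against 2 LGR4-/- libraries cannot give an exact permutation p below 0.333. The differences are therefore given without a test. A limma fit of the clones against control, run as an alternative, is given below with the other settings. Where enough reads were implied, a 95% counting interval (Clopper-Pearson) of the log2 ratio of reads is given, which covers counting error only and not the spread between cultures.

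To ask whether R-spondin2 moved the histone genes, differences in log2(FPKM + 1) were taken for the 33 histone genes whose mean over the libraries reached 1 FPKM. With R-spondin2, 17 were higher than in control, 15 lower and 1 equal, and the median difference was 0.03, against -0.01 over all 12697 genes at that level. The members were more scattered than genes in general, with an SD of 0.64 against 0.21. Between 2 and 5 FPKM, the SD was 0.80 for 16 histone genes and 0.26 for 2334 other genes, although at the same FPKM the short histone transcripts hold fewer reads. A median transcript of 3079 bases gains 0.0368 FPKM from 1 read.

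The classes were mixed within themselves. The H2A genes gave 7 higher and 4 lower, from -1.71 to 0.99, with a median of 0.42, and the H2B genes 7 higher, 5 lower and 1 equal, from -0.65 to 1.14, with a median of 0.11. Of the 3 H3 genes 1 was higher and of the 5 H4 genes 2, with medians of -0.21 and -0.07. HIST2H2AA3 and HIST2H2AA4, both at -0.25, are 1 measurement counted as separate genes, and so are HIST2H4A and HIST2H4B, both at -0.43. The same holds for the counts of genes below. The single H1 gene, HIST1H1C, differed by -0.05. No class had all its genes on 1 side of 0 except this class of 1 gene.

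**Figure D3:**
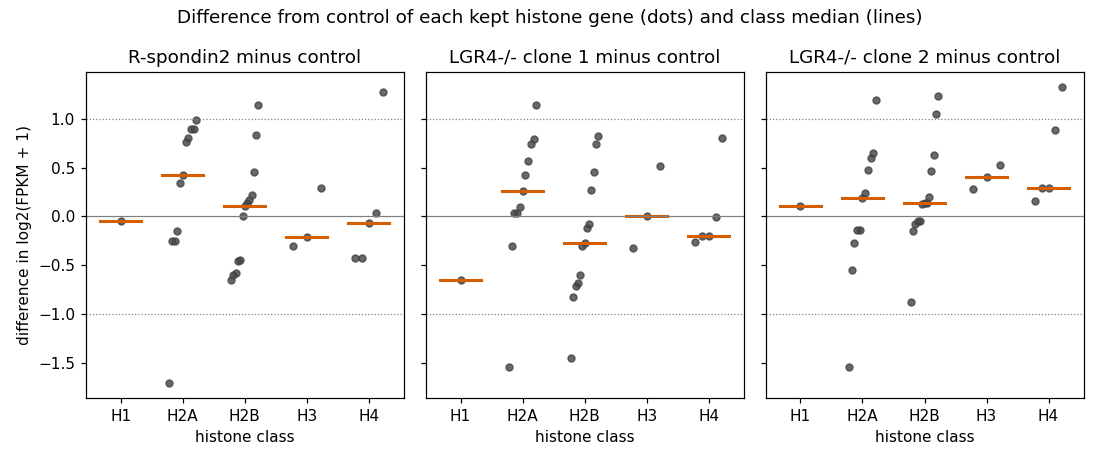
Difference in log2(FPKM + 1) from control for the 33 histone genes, with 1 dot for each gene and a line at the class median, in R-spondin2, LGR4-/- clone 1 and LGR4-/- clone 2. All 3 panels use the same control library, and the dotted lines mark 2-fold; in clone 2 all H3 and H4 genes lie above 0, while in clone 1 HIST1H4K alone of the H4 genes does.

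With R-spondin2, 2 members were raised at least 2-fold on this scale (0.0473% of all genes were) and 1 was lowered (0.173% of all genes). HIST1H4I went from 0.990 to 3.82 FPKM, a difference of 1.28, or from 3 to 11 implied reads with an interval of -0.01 to 4.39 in log2 ratio. HIST1H2BE (chr6:26172059-26184655) went from 0.730 to 2.82 FPKM, a difference of 1.14, or from 3 to 10 reads with an interval of -0.18 to 4.27. Both intervals reached 0. Across the 22 members with enough reads for an interval in this comparison, no interval excluded 0.

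The lowered gene was HIST1H2AI, which measured 2.27 FPKM in control and was listed at 0 with R-spondin2. HIST1H2AJ, its near-identical neighbour, moved the other way, from 1.90 to 3.91 FPKM. In clone 1 and clone 2 HIST1H2AI measured 2.5 and 3.56 FPKM and HIST1H2AJ was listed at 0 in both. Added together, the pair measured 4.17 FPKM in control, 3.91 with R-spondin2, 2.5 in clone 1 and 3.56 in clone 2, so that neither R-spondin2 nor either clone was 2-fold from control. The differences of the sum were -0.07, -0.56 and -0.18 in log2(FPKM + 1), and the counting intervals of the log2 ratio of reads were -1.30 to 0.97, -1.98 to 0.55 and -1.32 to 0.96. The single-gene values of these 2 genes are therefore uncertain as a split of shared reads. How the reads were divided was not tested. Among groups of members linked by at least 33% of their windows, only HIST2H3A, HIST2H3C and HIST2H3D passed 2-fold as a sum. These H3 genes, each below a mean of 1 FPKM, summed to 2.89, 0.540, 1.44 and 1.76 FPKM in control, R-spondin2, clone 1 and clone 2. The difference with R-spondin2 was -1.34, on 4, 4 and 3 reads in control and 0, 0 and 2 with R-spondin2. This group was chosen after its values were seen.

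**Figure D4:**
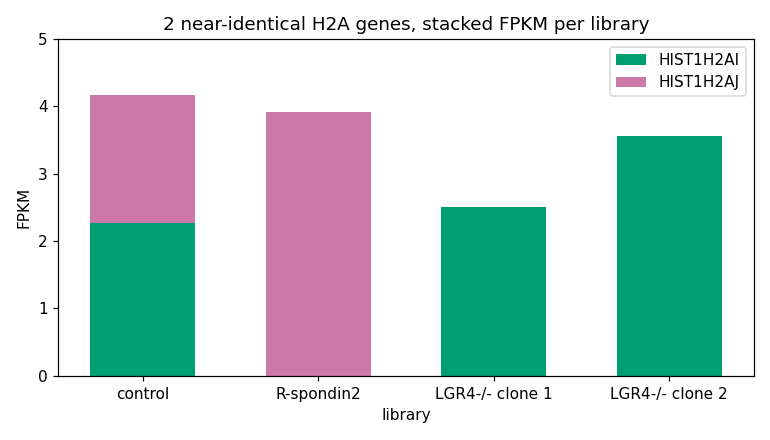
FPKM of HIST1H2AI and HIST1H2AJ stacked in each library. Control has both genes, R-spondin2 has only HIST1H2AJ and both LGR4-/- clones only HIST1H2AI, while the height of the stack stays between 2.5 and 4.17 FPKM.

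As a class, H2A summed to 33.5 FPKM in control and 45.9 with R-spondin2, a log2 ratio of 0.45. Its 16 genes held 134 reads in control and 176 with R-spondin2, with a log2 ratio of 0.43 and an interval of 0.10 to 0.77, the 1 class interval that excluded 0 in this comparison. Without HIST3H2A, its highest gene, the log2 ratio of summed FPKM was 0.48 and the interval on reads 0.06 to 0.83. The other classes had log2 ratios of summed FPKM of -0.02 for H1, 0.06 for H2B, -0.44 for H3 and -0.09 for H4. Their intervals on reads held 0, but covered only 13 of 17 H2B, 10 of 12 H3 and 13 of 14 H4 genes. The H2B interval left out HIST1H2BK, HIST1H2BD, HIST1H2BC and HIST2H2BF, at 20.4, 3.92, 2.87 and 3.17 FPKM in control. The H3 interval was wide, from -1.28 to 0.33, on 34 and 24 reads. The sum over all 65 members gave 0.09, and the reads of the 58 members with a usable length 0.11, with an interval of -0.08 to 0.30.

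The LGR4-/- clones were then compared with control, which asks whether loss of the receptor moved these genes. LGR4 itself measured 21.8 FPKM in control, 24.3 with R-spondin2, 7.40 in clone 1 and 13.9 in clone 2, lower in both clones and still present. In clone 1, 15 of the 33 genes were higher than control and 17 lower, with a median of -0.01. In clone 2, 23 were higher and 10 lower, with a median of 0.20. Over all 12697 genes the median was 0.02 in both. Both clones are read against the single control library, which the R-spondin2 comparison uses too, so that any error of that library enters all 3.

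On the mean of the 2 clones, 1 member was raised at least 2-fold (0.559% of all genes) and 2 were lowered (1.69% of all genes). HIST1H2BE was the raised gene, at 2.05 FPKM in clone 1 and 3.05 in clone 2 against 0.730 in control, a mean difference of 1.02. Control was the lowest library for this gene, and it rested on 3 reads there. The intervals of this gene held 0 in both clones, at -0.91 to 3.81 and -0.02 to 4.38. HIST1H2BN (chr6:27837760-27865798), an H2B gene, was lowered, from 4.81 FPKM in control to 1.12 in clone 1 and 2.16 in clone 2, a mean difference of -1.17. It was 6.98 FPKM with R-spondin2, so that the 2 wild-type libraries lay above both clones. Its reads were 21 in control, 29 with R-spondin2, 5 in clone 1 and 9 in clone 2, and the intervals of both clones lay below 0, at -3.83 to -0.62 and -2.51 to -0.01. Of the coding windows of HIST1H2BN 36.1% were shared with other genes, most with HIST1H2BE (17.8%). Those of HIST1H2BE were shared to 27.7%, most with HIST1H2BK. How shared reads were divided among these H2B genes was not tested. The other lowered gene was HIST1H2AJ, with a mean difference of -1.54, whose sum with HIST1H2AI is given above.

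For each clone alone, clone 1 had 1 member up and 2 down by 2-fold or more (1.26% and 2.26% of all genes), and clone 2 had 4 up and 1 down (0.331% and 1.17% of all genes). The gene up in clone 1 was the H2A gene HIST1H2AL, at 0.560 FPKM in control, 1.92 with R-spondin2, 2.43 in clone 1 and 0.840 in clone 2, with a difference of 1.14 and an interval of -0.10 to 5.42 in clone 1. The genes up in clone 2 were HIST1H4I, HIST1H2BE, HIST1H2AG and HIST1H2BJ, and those down were HIST1H2AJ and HIST1H2BN in clone 1 and HIST1H2AJ in clone 2. Counting intervals were given for 23 members in each clone and were not computed for other genes, so that no share over all genes can be set beside them. By these intervals, chosen after the values were seen, HIST1H4K and HIST3H2A lay above control in clone 1 and HIST1H1C and HIST1H2BN below it. In clone 2, HIST1H2AG, HIST1H2BJ, HIST1H4I and HIST2H2BE lay above and HIST1H2BN below. HIST1H2AG measured 0.95 FPKM in control and 3.44 in clone 2, HIST1H2BJ 1.15 and 3.46, and HIST2H2BE 1.33 and 2.60.

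Within classes, the H2A genes gave 9 higher and 2 lower in clone 1 and 6 higher and 5 lower in clone 2, and the H2B genes 4 higher and 9 lower in clone 1 and 8 higher and 5 lower in clone 2. All 5 H4 genes were higher in clone 2, from 0.16 to 1.33, which is 4 measurements since HIST2H4A and HIST2H4B have the same values, whereas in clone 1 HIST1H4K was higher, by 0.80, and the other 4 lay between -0.26 and -0.01. All 3 H3 genes were higher in clone 2, and 1 was higher, 1 lower and 1 equal in clone 1. The SD in clone 1 and clone 2 was 0.71 and 0.72 for H2A, 0.66 and 0.54 for H2B, 0.42 and 0.13 for H3 and 0.44 and 0.50 for H4. Over all genes, which were not matched for level, it was 0.41 and 0.32.

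The summed level of H4 was 35.2 FPKM in control, 52.8 in clone 1 and 47.7 in clone 2, with log2 ratios of 0.58 and 0.44. The intervals on reads were 0.26 to 1.04 and 0.06 to 0.86, both above 0. Different genes carried the 2 sums: without HIST1H4K the log2 ratio was 0.04 in clone 1 (interval on reads -0.62 to 0.90) and 0.80 in clone 2 (interval on reads 0.23 to 1.59). The sum of H2A was 45.9 FPKM in clone 1 and 39.1 in clone 2 against 33.5 in control, with intervals of 0.13 to 0.79 and -0.12 to 0.57. Without HIST3H2A the clone 1 interval held 0, from -0.11 to 0.68.

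H1 and H2B went apart between the clones. The H1 sum was 13.5 FPKM in control, 8.33 in clone 1 and 15.3 in clone 2, with intervals of -1.23 to -0.17 and -0.26 to 0.64. The H2B sum was 57.5, 42.5 and 60.5 FPKM, log2 ratios of -0.44 and 0.07. The 13 H2B genes with implied reads leave out HIST1H2BK, HIST1H2BD, HIST1H2BC and HIST2H2BF. On these 13 genes the log2 ratio was -0.12 in clone 1 and 0.34 in clone 2, and both intervals held 0. The H3 sum was -0.21 and 0.25 on the log2 scale, within its intervals. The FPKM summed over all 65 members gave 0.08 in clone 1 and 0.22 in clone 2, and without HIST1H4K -0.10 and 0.23. The reads of the 58 members with a usable length, which leave out HIST1H2BK, gave 0.16, with an interval of -0.02 to 0.35, and 0.29, with an interval of 0.11 to 0.47.

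**Figure D5:**
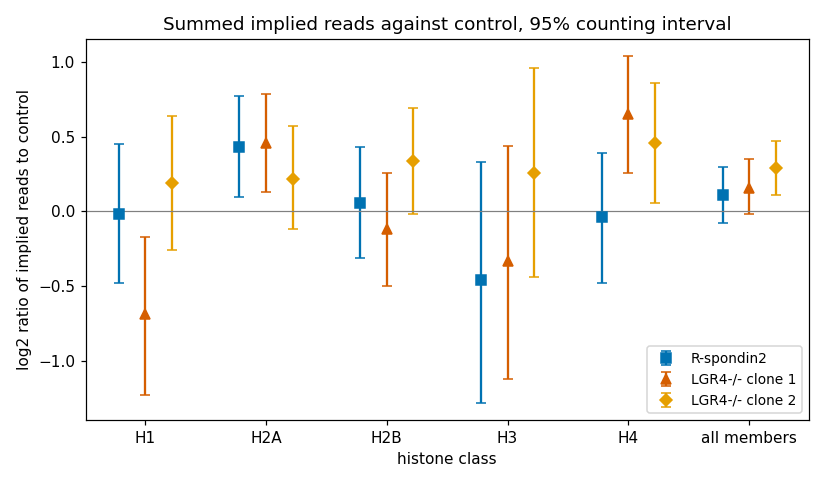
Log2 ratio of summed implied reads to control for each class and for all members, with 95% counting intervals, in R-spondin2 and the 2 LGR4-/- clones. Only genes with implied reads are summed, so that H2B rests on 13 of its 17 genes. Intervals above 0 are H2A in R-spondin2 and clone 1, H4 in both clones and the 58 members with implied reads in clone 2, and the interval of H1 in clone 1 lies below 0.

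The 2 clones, which bear the same genotype label, also differed from each other. Between clone 2 and clone 1 the members' median difference was 0.34, with 23 higher in clone 2, 9 lower and 1 equal, against a median of -0.00 over all genes. HIST1H4I and HIST1H4H were raised at least 2-fold in clone 2 (0.173% of all genes), by 1.34 and 1.15, and 0 were lowered (0.0788% of all genes). Their reads were 3 and 12 for HIST1H4I and 7 and 19 for HIST1H4H in clone 1 and clone 2, with intervals of 0.13 to 4.48 and 0.15 to 2.95. Clone 2 was above clone 1 for 12 of the 13 H2B genes (median 0.56) and for 3 of the 11 H2A genes (median -0.18). Over the 33 members the R-spondin2 difference and the clone difference, which share no library, had a Pearson correlation of 0.02 and a Spearman correlation of -0.01, with the same sign in 17.

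Pairs of an H2A and an H2B gene transcribed in opposite directions from overlapping promoter windows were compared next, 10 in all and 7 with both genes at 1 FPKM or more. The 2 genes of a pair differed from control in the same direction in 3 of 7 pairs with R-spondin2, 4 in clone 1 and 6 in clone 2. HIST1H2AM and HIST1H2BO, whose shared promoter is printed above, were both higher with R-spondin2. HIST1H2AM measured 1.43 FPKM in control, 3.84 with R-spondin2, 3.07 in clone 1 and 2.80 in clone 2, and HIST1H2BO 1.78, 3.95, 0.560 and 2.07 FPKM. In clone 1 they went apart, by 0.74 and -0.83. Of the coding windows of HIST1H2AM, 86.3% are shared with an annotated transcript of HIST1H3J. The 2 annotated genes overlap on the minus strand, HIST1H3J at chr6:27890382-27893106 and HIST1H2AM at chr6:27892757-27893149.

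Genes of related function were given as 4 lists, of replication-independent histones, histone mRNA factors, histone chaperones and S-phase genes, and none of them held a kept gene past 2-fold with R-spondin2 or on the mean of the clones. The replication-independent histones summed to between 2223 and 2296 FPKM over 16 genes. H3F3A (histone H3.3) measured 675 FPKM in control, 635 with R-spondin2, 777 in clone 1 and 770 in clone 2, and H2AFZ (H2A.Z) between 637 and 675 FPKM. H3F3B lay between 219 and 251 FPKM. Of 12 such genes at 1 FPKM or more, 9 were higher with R-spondin2 (median 0.06), and 8 were lower in clone 1 and 9 in clone 2 (medians -0.14 and -0.13). H3F3C at -1.17 and H2AFY2 at -1.0 passed 2-fold in clone 1 alone.

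Of 24 kept genes for the transcription and 3-prime-end processing of histone mRNA, 15 were lower with R-spondin2, 11 in clone 1 and 13 in clone 2, with medians of -0.03, 0.03 and -0.02. SLBP, which binds the stem-loop, measured 44.4, 42.2, 34.2 and 37.3 FPKM in control, R-spondin2, clone 1 and clone 2. SRRT was at 87.0 to 91.2 FPKM and CPSF3, the endonuclease that cuts the mRNA end, at 40.9 to 45.8 FPKM. NPAT, the activator of histone gene transcription, was at 5.03 to 5.27 FPKM.

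Among 17 histone chaperones 14 were lower with R-spondin2 (median -0.08), 5 in clone 1 (median 0.03) and 8 in clone 2 (median 0.00), with NAP1L1 at 274 to 291 FPKM, NASP at 218 to 282 and SSRP1 at 173 to 180. Of 20 genes of S phase, 16 were lower with R-spondin2 (median -0.12), whereas 14 were higher in clone 1 and 14 in clone 2 (medians 0.15 and 0.07). PCNA, the replication clamp, measured 188, 182, 210 and 208 FPKM, MCM7 165, 152, 190 and 178, and MCM3 128, 112, 162 and 144. The latter 2 are subunits of the replicative helicase, and all 3 were lowest with R-spondin2 and highest in clone 1. These shifts were smaller than 2-fold, and their part in the histone values was not tested.

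Markers of cell state moved with the groups. All 5 pluripotency genes were lower with R-spondin2 and higher in both clones, summing to 1136 FPKM in control, 873 with R-spondin2, 1888 in clone 1 and 1730 in clone 2. POU5F1 measured 597, 446, 1068 and 988 FPKM, LIN28A 372, 313, 473 and 424, DPPA4 119, 88.7, 228 and 211, and SOX2 19.9, 5.58, 66.0 and 50.7. All 4 primitive streak and mesoderm genes went the other way, with sums of 603, 820, 271 and 414 FPKM; MIXL1 measured 377, 528, 174 and 257 FPKM, EOMES 117, 157, 54.6 and 77.1, T 70.3, 77.8, 37.6 and 66.5, and MESP1 38.5, 57.3, 5.64 and 13.4. Of 7 stromal markers, summing to 214 to 292 FPKM, DCN and POSTN stayed at or below 0.390 FPKM in all libraries. COL1A2 measured 115, 153, 79.4 and 97.4 FPKM, COL1A1 64.0 to 83.6, THY1 36.1 to 64.5, and LUM 5.49, 9.11, 0.160 and 1.45. The part of cell state in the histone differences was not tested.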

How the data were processed

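RNA-SEQ was measured in 4 libraries of H1-derived cells. The authors deposited FPKM for each gene, given to 2 decimals and scaled for transcript length and depth. The submitters' processing notes name BWA, Bowtie, RSEM and the build hg19, without versions or roles. RSEM divides reads that fit several genes between them, which bears on near-identical histone genes.

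The members and gene lists were chosen with earlier results of these data known. FPKM were compared as log2(FPKM + 1), for genes whose mean over the 4 libraries reached 1 FPKM, and a gene was counted as raised or lowered at a difference of at least 1, that is 2-fold. This scale understates the change of low genes. Class sums used all genes, including those below the filter. The main differences carry no test, because control and R-spondin2 have 1 library each. As an alternative, LGR4-/- was tested against control with limma 3.58.1 on all 4 libraries in 3 groups, with the spread estimated from the 2 clones. Genes named were the 5 of highest mean in each class, each gene past 2-fold with R-spondin2, on the mean of the clones or between the clones, the highest gene of each cluster, the 3 highest of each other list with those past 2-fold, and LGR4; further genes, named for a count, were chosen after their values were seen.

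Depth was estimated per library from low values (below 0.6 FPKM, transcripts under 1500 bases), taking the total that made them nearest to whole reads. In the deposited libraries 76.3% to 77.7% of these values lay within 0.2 of a whole read. Reads of a member were implied from its FPKM, its RefSeq gene span less 60 bases and this depth, for 58 members. The 60 bases were chosen because they brought 89 low member values nearest to whole reads. Of these values 80.9% then lay within 0.2 of a whole read, against 47.2% with 0 bases taken off. That share is therefore no separate check of the implied reads. An interval was given where at least 10 reads were implied over both libraries. Coding sequences and positions came from GENCODE release 29 on GRCh38 and promoters from RefSeq on GRCh38.p14, neither being the authors' build. A window of 50 bases counted as shared where another gene's transcript held it. Computations used Python 3.11.15, numpy 2.4.6, scipy 1.17.1 and pandas 2.3.3, and scripts were tested on simulated data.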

Additional observations from a re-analysis of the deposited data

How the results depend on the processing

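The counts of genes past 2-fold moved with most settings, and many histone genes rest on few reads. With R-spondin2, 2 raised and 1 lowered became 8 and 2 with a pseudocount of 0.1, 8 and 4 at a 1.5-fold threshold and 0 and 0 at a mean of at least 5 FPKM, and 2 were lowered with no filter on low values. On the mean of the LGR4-/- clones, 1 raised and 2 lowered became 3 raised with a pseudocount of 0.1, 6 raised at 1.5-fold, and 0 and 0 at 5 FPKM; with either clone left out, 1 to 4 were raised and 1 to 2 lowered. limma, with the control assumed to vary as the clones do, called 0 of 33 members at an adjusted p under 0.05 in either direction and 7 at an unadjusted p under 0.05, against 2332 of all 12697 genes. Between the clones, 2 raised and 0 lowered became 7 and 1 with a pseudocount of 0.1 and 9 and 5 at 1.5-fold, and 0 were raised at 5 FPKM. The cause of these shifts was not tested beyond the construction of each setting.

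The median of clone 2 against clone 1 turned from 0.34 to -0.21 at a mean of at least 5 FPKM, which leaves 6 genes. The log2 ratio of summed FPKM between the clones was -0.14 at that level and 0.33 without HIST1H4K, against 0.14. That of H1 with R-spondin2 went from -0.02 to 0.61 without HIST1H1C, on 6 reads against 4. The other 79 of 103 alternatives stayed within the counting interval, the spread of the 2 clones or, for counts, 1.5 times. Some of these crossed 0: H1 on the mean of the clones went from -0.26 to 0.31 without HIST1H1C, and H2B with R-spondin2 from 0.06 to -0.04 without HIST1H2BK. A sum over members of at least 1 FPKM was added after seeing the data. No paired analysis was possible because the groups share 1 replicate number only. Depth limits single genes most: the median width of a member's counting interval with R-spondin2 was 2.98 in log2.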
